A study of Homo sapiens with 96 samples.

Results

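The genes NECTIN1, GOLM1, RTN4R, GPRC5C, FERMT2, TMEM158 and LIPG were followed across K562 cells in which the Polycomb complex PRC1.1 was depleted, its partner PRC2 was inhibited, or both. They were chosen from earlier results of these data: 5 were low without treatment and had their highest levels when the degron ligand and the EZH2 inhibitor GSK343 were given together, while TMEM158 and LIPG were chosen as responders to GSK343. All 7 of 7 were found in each of the 5 count tables, out of 60605 gene IDs in 4 tables and 50037 symbols in the table of J2_7 cells. Because levels under GSK343 chose the genes, the values of the inhibitor and J2_7 tables are given as a description without a test. Tests are given only for the BCOR, KDM2B and construct tables, in which no cell received GSK343.

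K562 is a leukaemia line with erythroid features, and all 96 libraries came from it. The J2_7 table holds 4 treatments, namely 5PhIAA ligand plus GSK343, ligand, GSK343 and DMSO, in KDM2B-mAID_J2_7 cells, called J2_7 here, and in KDM2B-mAID cells, called mAID. By their names both carry the mAID degron tag on KDM2B, so the ligand, an auxin analogue, is given to remove that protein. A double knockout of both JARID2 and AEBP2 is mentioned among the labels of that table, but no label ties it to the name J2_7 or says whether J2_7 is 1 clone. The inhibitor table holds the same 4 treatments in K562 cells whose table is named for the KDM2B degron. The construct table holds ligand and DMSO in 5 lines called LF, SF, dLRRS, dCxxC and EV, which the labels do not spell out. The BCOR and KDM2B tables hold degron cells left untreated or given ligand for 2, 8, 24 or 72 h, with no vehicle control. Each of the 32 groups has 3 libraries. Nothing says that the libraries of a group came from separate cultures, so p-values measure only the spread between these libraries, which may be technical.

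PRC1.1 is a Polycomb complex whose subunit KDM2B binds unmethylated CpG dinucleotides through a CxxC zinc finger, whose subunit BCOR is a scaffold, and which ubiquitinates histone H2A. PRC2 methylates histone H3 through EZH2, the enzyme that GSK343 blocks, and its PRC2.2 form holds JARID2 and AEBP2, which can read the mark left on H2A. Both complexes keep many developmental and lineage genes silent, typically at promoters rich in CpG. The 7 genes encode membrane, adhesion or secreted proteins rather than members of 1 pathway.

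Promoter sequences are shown because KDM2B recruits PRC1.1 to CpG-rich DNA. RefSeq windows on GRCh38.p14 were matched for 5 of the 7 genes, and the 250 bases before the start are printed 5′ to 3′ on the strand of the gene, with every CG in capitals. GOLM1 has a pair of windows, of which the CpG-rich one is printed.
GOLM1 (chr9:86099559-86099808, minus strand): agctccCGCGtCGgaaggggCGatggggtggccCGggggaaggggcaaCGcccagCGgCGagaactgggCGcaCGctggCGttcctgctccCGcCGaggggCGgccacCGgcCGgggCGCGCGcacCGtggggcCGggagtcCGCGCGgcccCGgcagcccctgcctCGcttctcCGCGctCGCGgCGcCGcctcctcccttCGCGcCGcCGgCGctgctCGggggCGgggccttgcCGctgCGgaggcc
RTN4R (chr22:20268319-20268568, minus strand): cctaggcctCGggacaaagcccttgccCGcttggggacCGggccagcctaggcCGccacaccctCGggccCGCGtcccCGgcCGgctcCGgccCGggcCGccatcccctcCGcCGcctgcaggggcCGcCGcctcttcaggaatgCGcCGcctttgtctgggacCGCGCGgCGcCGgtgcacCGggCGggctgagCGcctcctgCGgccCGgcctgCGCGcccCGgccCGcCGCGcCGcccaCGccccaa
FERMT2 (chr14:52951051-52951300, minus strand): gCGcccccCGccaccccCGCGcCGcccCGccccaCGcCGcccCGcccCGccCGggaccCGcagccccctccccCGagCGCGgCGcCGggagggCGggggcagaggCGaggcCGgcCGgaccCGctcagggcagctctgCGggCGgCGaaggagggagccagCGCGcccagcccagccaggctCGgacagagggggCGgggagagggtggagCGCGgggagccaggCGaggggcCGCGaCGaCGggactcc
TMEM158 (chr3:45226288-45226537, minus strand): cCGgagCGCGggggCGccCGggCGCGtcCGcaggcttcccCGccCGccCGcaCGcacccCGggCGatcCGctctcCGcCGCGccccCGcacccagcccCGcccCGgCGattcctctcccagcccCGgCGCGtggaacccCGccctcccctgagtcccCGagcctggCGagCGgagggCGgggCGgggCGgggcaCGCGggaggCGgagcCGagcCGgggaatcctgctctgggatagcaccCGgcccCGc
LIPG (chr18:49561807-49562056, plus strand): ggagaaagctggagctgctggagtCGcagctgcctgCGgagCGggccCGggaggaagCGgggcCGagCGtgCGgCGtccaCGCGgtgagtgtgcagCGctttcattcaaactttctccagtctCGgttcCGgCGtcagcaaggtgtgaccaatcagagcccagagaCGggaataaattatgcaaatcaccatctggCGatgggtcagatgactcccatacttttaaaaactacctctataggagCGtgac
The printed GOLM1 window held 41 CG dinucleotides, TMEM158 39, RTN4R 36, FERMT2 36 and LIPG 18, against a median of 11 over 35116 promoter windows of the same length. As many CG as in those windows were found in 1.73% (GOLM1), 2.65% (TMEM158), 4.85% (RTN4R and FERMT2) and 36.8% (LIPG) of all windows. The other GOLM1 window, at chr9:86100150-86100399, held 9, as many as 54.1% of windows have. The first 4 of these genes thus had a start in the CpG-dense tail, while LIPG lay in the broad middle, as the plot of CpG numbers shows. The GC-box letters GGGCGG, searched on both strands, occurred 8 times in FERMT2, 7 times in TMEM158 and 2 times each in RTN4R and the printed GOLM1 window, but not in LIPG, and 42.6% of all windows hold at least 1. GATAA, the core letters bound by GATA factors, was searched on both strands too and was in none of these 6 windows, while 20.4% of all windows hold it.

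**Figure D1:**
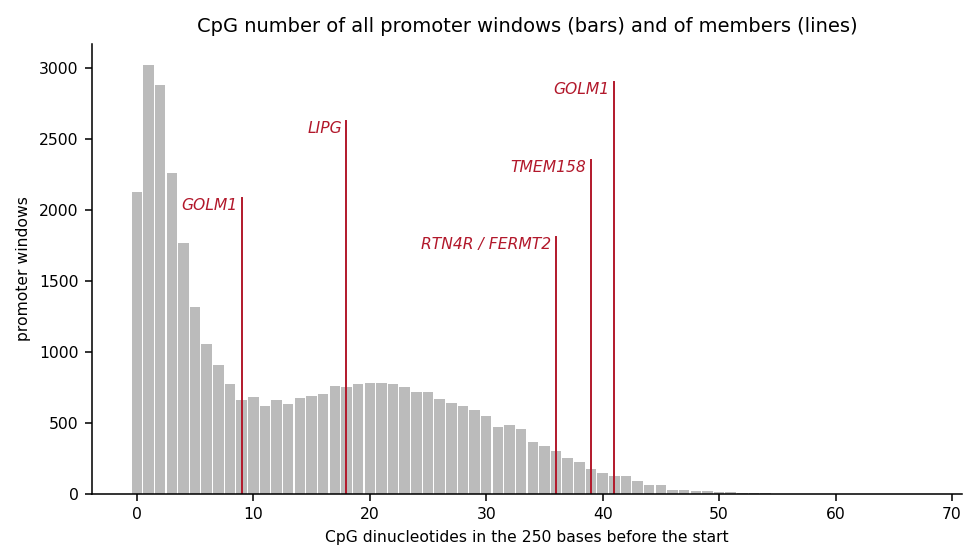
Number of promoter windows (y axis) by the number of CpG dinucleotides in the 250 bases before the start (x axis), with the member windows as red lines. RTN4R and FERMT2 (36 each), TMEM158 (39) and 1 GOLM1 window (41) lie in the right tail, LIPG (18) and the other GOLM1 window (9) do not.

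On hg38 with GENCODE release 44, the genes lie on 7 chromosomes, NECTIN1 at chr11:119623408-119729200, GOLM1 at chr9:86026146-86100173, RTN4R at chr22:20241415-20283246, GPRC5C at chr17:74424851-74451653, FERMT2 at chr14:52857268-52952435, TMEM158 at chr3:45224466-45226287 and LIPG at chr18:49560699-49599185. GPRC5C and LIPG are on the plus strand and the others on the minus strand. Genes on the opposite strand overlap NECTIN1 (USP2-AS1, NECTIN1-AS1 and RNU6-1123P) and FERMT2 (2 lncRNAs and 1 pseudogene), and since the strand setting of the counting is not given in the sources used here, reads of these pairs cannot be told apart.

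The libraries held 5806624 to 18519442 counts for BCOR, 10429112 to 19910440 for KDM2B, 2346542 to 22611557 for the constructs, 4268383 to 24545679 for the inhibitor and 782663 to 12740071 for the J2_7 table. The shallowest libraries were EV ligand library 1 and J2_7 GSK343 library 1. Levels are given as CPM, counts scaled to library size with TMM factors within a table, and are not compared between tables. The summed CPM of 10 K562 erythroid markers lay between 528 and 1767 in 4 tables and between 10579 and 23772 in the J2_7 table, where the labels name another library protocol. In those 4 tables summed T, B and fibroblast markers reached at most 10.7 CPM, while 3 epithelial markers summed to 26.96 to 94.75 CPM, with KRT5, KRT14 or both at 0 in all libraries of each table, and 3 endothelial markers to 0.285 to 43.2 CPM. KDM2B, whose transcript a degron is not meant to change, lay at 70.42 to 89.97 CPM in all libraries of the KDM2B table. With DMSO its transcript averaged 3622 CPM in dCxxC, 2929 CPM in dLRRS, 2386 CPM in LF and 898 CPM in SF cells, against 82.1 CPM in EV cells. In the J2_7 table with DMSO, AEBP2 averaged 1.68 ± 0.40 CPM in J2_7 and 17.1 ± 1.8 CPM in mAID cells, and JARID2 90.1 ± 9.1 CPM in J2_7 and 115 ± 13 CPM in mAID cells (SD, n = 3 each).

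The adhesion and receptor genes had their highest values with both agents in the inhibitor table, and NECTIN1 and RTN4R were nearly silent there with DMSO. NECTIN1 encodes a cell adhesion protein of the immunoglobulin family that also serves as a herpes simplex virus receptor. It had 58, 71 and 105 counts with ligand plus GSK343 (5.14, 5.02 and 4.16 CPM), 14, 23 and 13 with ligand, 3, 13 and 18 with GSK343 and 2, 1 and 3 with DMSO. The joint libraries did not overlap any other group, and the 6 counts over the DMSO group set a pooled ratio of 22.01 with a 0.95 counting interval of 9.96 to 60.6, which covers counting error only. The means stood in the order joint (4.77 CPM), ligand (1.77), GSK343 (1.08) and DMSO (0.21), and the ligand and GSK343 libraries overlapped each other.

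RTN4R, the Nogo receptor, a surface protein known for restraining axon growth in neurons, had 44, 66 and 95 counts with ligand plus GSK343 (3.90, 4.67 and 3.76 CPM) against 2, 5 and 3 with DMSO. With ligand it had 16, 10 and 11 counts, and with GSK343 10, 21 and 19. Each single agent lay above DMSO in every library, below the joint libraries, and overlapped the other agent. The log2 fold change with both agents was 3.51 (SE 0.36), with ligand 1.88 (SE 0.45) and with GSK343 2.24 (SE 0.43), all against DMSO.

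GPRC5C, an orphan G-protein-coupled receptor that marks dormant blood stem cells in mouse, had 9.22, 9.84 and 8.63 CPM with both agents. Its ligand libraries had 5.27, 4.82 and 4.43 CPM, its GSK343 libraries 2.19, 5.01 and 4.26 CPM and its DMSO libraries 1.99, 2.64 and 1.76 CPM. Joint treatment gave a mean of 9.23 ± 0.60 CPM against 2.13 ± 0.45 CPM with DMSO (SD, n = 3 each), and only GSK343 library 1, the shallowest of the table, brought the GSK343 group down into the DMSO range.

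FERMT2, or kindlin-2, which activates integrins at focal adhesions, had the smallest joint change of the 7. It had 3.63, 6.16 and 4.75 CPM with both agents, 3.32, 3.18 and 2.16 CPM with ligand, 2.43, 2.82 and 3.03 CPM with GSK343 and 0.996, 1.05 and 2.53 CPM with DMSO. The joint libraries were above all others, but ligand and GSK343 each overlapped DMSO because of DMSO library 3.

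GOLM1, a membrane protein of the Golgi known as a serum marker of liver disease, went furthest by fold and varied most among the joint libraries. Its counts were 34, 115 and 62 with ligand plus GSK343, 7, 5 and 3 with ligand, 1, 5 and 3 with GSK343 and 1, 0 and 2 with DMSO. The joint libraries had 3.01, 8.14 and 2.45 CPM, so library 2 stood well above the other two. The pooled ratio of joint to DMSO was 39.7 with a 0.95 counting interval of 13.4 to 194, since the DMSO group held 3 counts in all.

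TMEM158 and LIPG followed GSK343 more than the ligand. TMEM158, a membrane protein known to be induced during Ras-driven senescence, had 44.05, 49.68 and 48.21 CPM with both agents, 9.51, 11.8 and 11.8 CPM with ligand, 33.5, 38.5 and 36.2 CPM with GSK343 and 9.96, 6.22 and 9.03 CPM with DMSO. The ligand group overlapped DMSO, and the joint libraries lay just above those with GSK343, by a log2 difference of 0.38 (SE 0.12). LIPG, the endothelial lipase that cleaves phospholipids of HDL particles, had 6.47, 6.30 and 5.78 CPM with both agents, 2.06, 1.44 and 1.24 CPM with ligand, 4.37, 3.38 and 4.73 CPM with GSK343 and 0.797, 0.527 and 1.32 CPM with DMSO. Its GSK343 libraries were all above the ligand libraries and all below the joint libraries.

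In all 7 genes every joint library exceeded the 9 other libraries of the inhibitor table, which held for 4.64% of the 13374 genes tested there. The rule used this contrast, so nothing is read from that count. Joint treatment placed GOLM1 at rank 12 and NECTIN1 at rank 34 of 13374 genes by log2 fold change against DMSO, but GPRC5C at rank 363 and FERMT2 at rank 502. On the log2 scale the departure of the joint effect from the sum of both single effects was 1.65 (SE 1.64) for GOLM1, -0.94 (SE 0.63) for NECTIN1, -0.61 (SE 0.53) for RTN4R and between -0.24 and -0.01 for LIPG, FERMT2, GPRC5C and TMEM158. These values moved with single libraries: left out in turn, they gave -0.16 to 0.17 for TMEM158, -0.21 to 0.20 for GPRC5C, -0.69 to 0.093 for FERMT2 and -0.63 to 0.019 for LIPG, so that the sign of these 4 was not fixed.

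**Figure D2:**
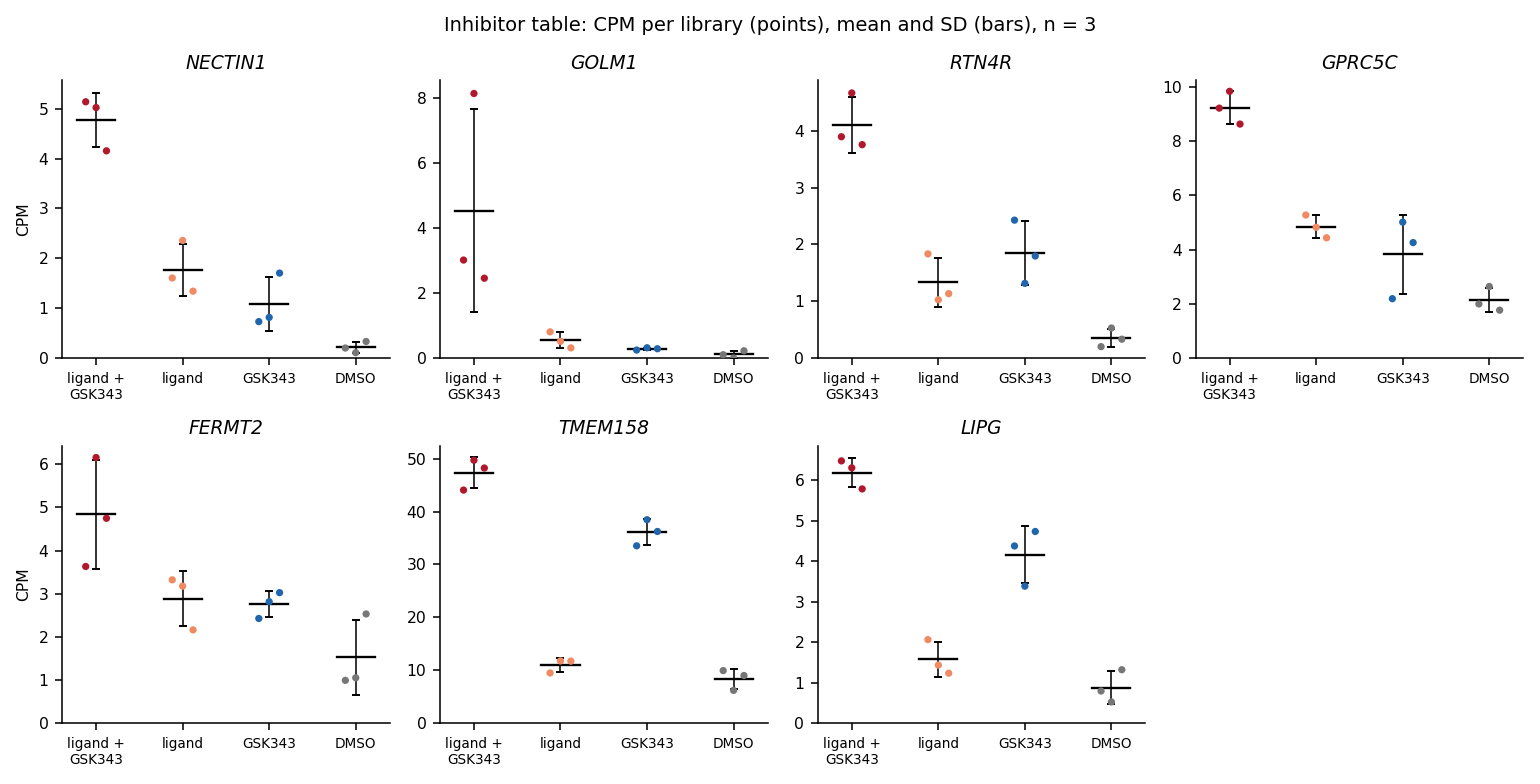
CPM (y axis) of the 7 genes in the inhibitor table by treatment (x axis), with 1 point per library and bars for mean and SD (n = 3). The joint libraries are the highest in every panel, and TMEM158 and LIPG are higher with GSK343 than with ligand.

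In J2_7 cells FERMT2, GPRC5C and RTN4R lay below their mAID levels, TMEM158 lay above, and NECTIN1, GOLM1 and LIPG overlapped with both agents and with DMSO. FERMT2 had 1, 0 and 0 counts in J2_7 cells with DMSO, against 30, 10 and 29 in mAID cells. With both agents it had 8, 20 and 10 counts in J2_7 cells (0.878, 1.63 and 1.09 CPM) and 21, 35 and 45 in mAID cells (4.94, 5.17 and 6.02 CPM). FERMT2 was thus below mAID in every treatment and, with both agents, still below the mAID DMSO libraries.

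GPRC5C had no count in the 3 J2_7 libraries with DMSO, against 18, 8 and 14 in mAID cells, so it was at least 17.1-fold lower by a floor of 3 counts over the group. With both agents it had 12, 17 and 7 counts in J2_7 and 20, 41 and 40 in mAID cells. This table lists GPRC5C as 2 entries with equal values in all 24 libraries, so its reads appear to be divided between them and the counts given are those of 1 entry. RTN4R libraries of J2_7 cells stood below those of mAID cells under each treatment without overlap, with 8.56, 9.15 and 10.5 CPM in J2_7 and 15.1, 13.3 and 15.2 CPM in mAID cells with both agents. With DMSO it had 0.493, 0.189 and 0.483 CPM in J2_7 and 1.66, 1.69 and 2.16 CPM in mAID cells, so the ratio of joint to DMSO was 23.9 in J2_7 and 7.81 in mAID cells. That difference of ratios was not tested.

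TMEM158 had 237, 236 and 263 CPM in J2_7 cells with both agents, against 64.7, 62.1 and 56.4 CPM in mAID cells. With DMSO it had 64.1, 69.0 and 70.8 CPM in J2_7 and 21.1, 17.2 and 20.6 CPM in mAID cells. It was higher in J2_7 than in mAID cells in all 4 treatments without overlap, and the J2_7 libraries with DMSO overlapped the mAID libraries with both agents, at means of 68.0 and 61.1 CPM. In J2_7 cells GSK343 alone gave 276, 217 and 216 CPM. The highest of these came from the shallow library 1 of 782663 counts, and it was the only GSK343 library that reached the joint values. In mAID cells all joint libraries lay above the GSK343 values of 43.3, 40.7 and 43.8 CPM.

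NECTIN1 and GOLM1 were low in both lines. NECTIN1 had 16, 18 and 16 counts in J2_7 and 11, 10 and 19 in mAID cells with both agents, and 2, 1 and 1 in J2_7 and 4, 1 and 0 in mAID cells with DMSO. GOLM1 had 14, 15 and 13 counts in J2_7 cells with both agents and none with DMSO, at least 15.2-fold higher, while mAID cells had 2, 11 and 5 counts with both agents and 1, 0 and 1 with DMSO. The lines overlapped for both genes with both agents and with DMSO. LIPG had 6, 16 and 8 counts in J2_7 and 4, 11 and 5 in mAID cells with both agents, against 1, 1 and 2 in J2_7 and 4, 1 and 6 in mAID cells with DMSO, and again the lines overlapped.

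In J2_7 cells the joint libraries exceeded all 9 others for 5 of 7 genes, which held for 2.96% of the 14649 genes tested, and TMEM158 and NECTIN1 were the exceptions. NECTIN1 had 2.59 CPM in J2_7 ligand library 2, from 7 counts in a shallow library of 2654401 counts, and without that library its joint values were above all others. In mAID cells this held for NECTIN1, RTN4R, GPRC5C and TMEM158, 4 of 7 genes, and for 3.41% of all genes. With DMSO, 3 of the 7 genes had every J2_7 library below every mAID library and 1 had every library above, as did 23.3% and 22% of all genes.

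**Figure D3:**
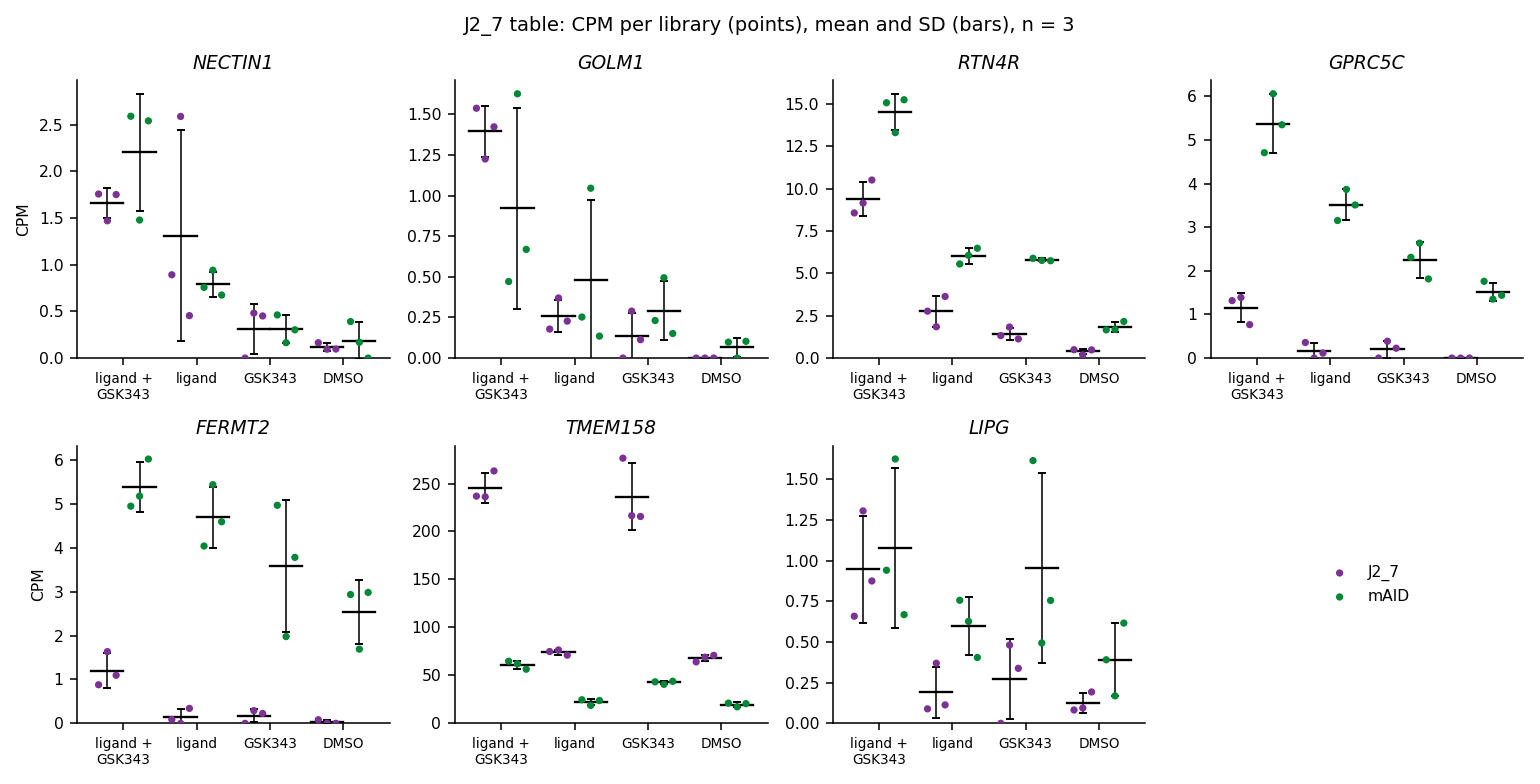
CPM (y axis) of the 7 genes in J2_7 and mAID cells by treatment (x axis), with 1 point per library and bars for mean and SD, drawn from 0 upward (n = 3). TMEM158 is higher in J2_7 cells in all treatments, while FERMT2, GPRC5C and RTN4R are lower.

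With ligand and no EZH2 inhibitor, 5 of the 7 genes were called higher at 72 h in the BCOR table, and the calls came in steps. NECTIN1 and RTN4R are among them only as a description, for the reason given below. A gene was called when its adjusted p was under 0.05 and its absolute log2 fold change above 0.585, with edgeR's quasi-likelihood test and Benjamini-Hochberg adjustment over all genes of the table. All 7 genes passed the filter on low counts in the BCOR table. At 2 h no member was called (0.624% of 14110 genes were called higher), although 1 member, GPRC5C, had an unadjusted p under 0.05 (adjusted p 0.0507) and was the 1 member that DESeq2 called. At 8 h 4 members were called higher (2.45% of all genes), RTN4R, NECTIN1, GOLM1 and GPRC5C, and the same 4 at 24 h (3.03%). At 72 h FERMT2 joined them (4.74%), and the other members were not called. NECTIN1 and RTN4R passed the filter only through libraries given ligand, with no untreated library at its cutoff, so the counts that hold them are a description.

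GPRC5C changed most in this course. It had 0.789, 1.73 and 2.17 CPM in untreated cells, 2.80, 3.92 and 3.09 CPM at 2 h, 4.37, 4.43 and 5.36 CPM at 8 h, 5.19, 3.06 and 5.28 CPM at 24 h and 9.23, 12.3 and 9.18 CPM at 72 h. Its 72 h libraries were above all earlier ones, with a log2 fold change of 2.71 (SE 0.24, adjusted p 4.09e-08 by edgeR's quasi-likelihood test), while those at 8 h and 24 h overlapped. GOLM1, which had more counts here than in the KDM2B table, had 2.94, 1.73 and 2.63 CPM in untreated cells, 4.02, 2.91 and 2.55 CPM at 2 h, 4.22, 4.43 and 3.52 CPM at 8 h, 5.19, 4.79 and 5.11 CPM at 24 h and 5.43, 4.53 and 5.76 CPM at 72 h. All its libraries from 8 h on lay above the untreated ones, with a log2 fold change of 1.13 (SE 0.21, adjusted p 0.000431) at 72 h. Its call at 8 h (log2 0.79, SE 0.22, adjusted p 0.0286) was lost without 8 h library 1, without 8 h library 2 or without untreated library 2, with adjusted p from 0.0940 to 0.152.

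NECTIN1 and RTN4R rested on few counts. As they passed the filter only through libraries given ligand, their p-values are a description too. NECTIN1 had 3, 2 and 1 counts in untreated cells, 2, 2 and 4 at 2 h, 10, 11 and 2 at 8 h, 9, 5 and 4 at 24 h and 8, 11 and 14 at 72 h. The 72 h group lay above the untreated group by a log2 fold change of 2.29 (SE 0.50, adjusted p 0.00237), and all later groups from 8 h on overlapped one another. Its call at 8 h ended without 8 h library 1, 8 h library 2 or untreated library 2 (adjusted p 0.0510 to 0.0553). RTN4R had 6, 6 and 7 counts in untreated cells, 3, 7 and 17 at 2 h, 19, 20 and 11 at 8 h, 15, 15 and 11 at 24 h and 20, 22 and 17 at 72 h. It reached its level by 8 h, with a log2 fold change of 1.77 (SE 0.43, adjusted p 0.0125) there and 1.52 (SE 0.42, adjusted p 0.0136) at 72 h, and the groups from 8 h on overlapped. Its call was lost without untreated library 2 at 8 h and at 72 h (adjusted p 0.0628 and 0.0741), without 24 h library 2 at 24 h (0.0704) and without 72 h library 2 at 72 h (0.0531). The count of members called at 8 h was 1 without untreated library 2 and 2 without 8 h library 1 or 2. At 72 h it was 3 without untreated library 2 or 72 h library 2. At 2 h GPRC5C was called without untreated library 3 (adjusted p 0.0283).

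FERMT2 was called only at 72 h in BCOR-depleted cells. It had 1.65, 1.35 and 4.57 CPM in untreated cells, 1.49, 1.14 and 4.76 CPM at 2 h, 2.96, 2.91 and 5.51 CPM at 8 h, 3.59, 2.66 and 4.43 CPM at 24 h and 6.79, 8.69 and 6.90 CPM at 72 h. Only the 72 h libraries were all above the untreated ones (log2 fold change 1.62, SE 0.47, adjusted p 0.0312). At 8 h each library was above the untreated library of the same number, and library 3 was the highest in both groups. That call did not hold without any 1 of untreated libraries 1 and 2 or 72 h libraries 1, 2 and 3, with adjusted p from 0.0624 to 0.117, nor with no filter on low counts (0.0734).

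TMEM158 and LIPG were not called at any time in the BCOR table. TMEM158 had 21.1, 28.4 and 39.2 CPM in untreated cells, 18.6, 29.2 and 35.8 CPM at 2 h, 28.1, 41.9 and 77.6 CPM at 8 h, 17.3, 17.9 and 26.4 CPM at 24 h and 42.0, 49.0 and 38.5 CPM at 72 h, and each group overlapped the untreated one. At 8 h each TMEM158 library was nevertheless above the untreated library of the same number. LIPG had 1.51, 2.16 and 2.17 CPM in untreated cells, 1.42, 1.46 and 0.681 CPM at 24 h and 1.09, 1.57 and 1.31 CPM at 72 h. Its 24 h libraries were all below the untreated ones (adjusted p 0.178), and at 72 h the log2 difference was -0.55 (SE 0.27, adjusted p 0.161).

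In KDM2B degron cells the first call came at 2 h. GOLM1 did not pass the filter in the KDM2B table, so 6 members were tested, and counts over these 6 describe them without speaking for all 7. At 2 h 1 member, GPRC5C, was called higher (1.27% of 14524 genes). At 8 h 5 members were called higher (3.68%), RTN4R, FERMT2, NECTIN1, GPRC5C and TMEM158. At 24 h LIPG stood in place of TMEM158 among the 5 called (9.54%), and at 72 h TMEM158 was called again and LIPG was not (6.55%). NECTIN1 and LIPG passed the filter only through libraries given ligand, so they too are counted as a description. The same limit holds for their p-values in this table.

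FERMT2 had 6.58, 8.12 and 7.04 CPM in untreated KDM2B degron cells, 9.59, 8.67 and 10.6 CPM at 2 h, 12.6, 12.9 and 15.8 CPM at 8 h, 26.7, 26.3 and 29.1 CPM at 24 h and 15.4, 18.9 and 32.7 CPM at 72 h. It was highest at 24 h, where the log2 fold change was 1.92 (SE 0.21, adjusted p 4.65e-06), and at 72 h it spread over a range that covered the 24 h values. Its call at 8 h (log2 0.92, SE 0.22, adjusted p 0.0137) ended without 8 h library 3 or untreated library 1 (adjusted p 0.0543 and 0.0668).

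TMEM158 showed a pattern with 2 separate highs, at 8 h and 72 h. It had 7.45, 7.29 and 8.10 CPM in untreated cells, 7.68, 8.01 and 9.28 CPM at 2 h, 16.23, 15.96 and 16.91 CPM at 8 h, 7.88, 8.14 and 8.79 CPM at 24 h and 14.3, 13.5 and 13.5 CPM at 72 h. The 8 h and 72 h libraries did not overlap those of any other time, and the 24 h libraries overlapped the untreated ones. The log2 fold changes were 1.10 (SE 0.11, adjusted p 3.86e-06) at 8 h, 0.12 (SE 0.12, adjusted p 0.481) at 24 h and 0.85 (SE 0.12, adjusted p 1.83e-05) at 72 h. In BCOR degron cells the means of TMEM158 were 29.5 CPM untreated, 49.2 CPM at 8 h, 20.6 CPM at 24 h and 43.2 CPM at 72 h, none of them called.

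GPRC5C was the first to be called, with 6.07, 5.47 and 7.29 CPM in untreated cells, 10.38, 9.488 and 10.95 CPM at 2 h and 15.3, 12.4 and 12.8 CPM at 72 h. Its log2 fold change was 0.71 (SE 0.15, adjusted p 0.00513) at 2 h and 1.10 (SE 0.15, adjusted p 1.59e-05) at 72 h. At 24 h the value of 0.61 (SE 0.15, adjusted p 0.00352) just passed the fold threshold and fell below it without 24 h library 1 (0.48) or untreated library 2 (0.52).

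NECTIN1 had 4, 2 and 3 counts in untreated cells, 7, 3 and 2 at 2 h, 10, 19 and 8 at 8 h, 21, 18 and 11 at 24 h and 19, 13 and 12 at 72 h. It lay above untreated cells in every library from 8 h on, with a log2 fold change of 2.20 (SE 0.50, adjusted p 0.00266) at 72 h. RTN4R had 11, 4 and 10 counts in untreated cells, 11, 31 and 16 at 2 h, 26, 40 and 20 at 8 h, 25, 21 and 49 at 24 h and 37, 27 and 26 at 72 h, with a log2 fold change of 1.79 (SE 0.45, adjusted p 0.0057) at 72 h. The groups of RTN4R from 2 h on overlapped one another. The 8 h calls were the least firm: that of NECTIN1 (adjusted p 0.0299) was lost whichever of the 6 libraries compared was left out (0.0505 to 0.123), and that of RTN4R (0.0306) with 5 of the 6, untreated library 3 being the exception (0.0641 to 0.1251). RTN4R at 24 h also lost its call without 24 h library 3 (adjusted p 0.0711).

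LIPG had 9, 7 and 5 counts in untreated cells, 16, 23 and 9 at 8 h, 30, 17 and 13 at 24 h and 16, 9 and 12 at 72 h. Its call at 24 h (log2 1.16, SE 0.37, adjusted p 0.0195) was lost without 24 h library 1 or untreated library 3 (0.0985 and 0.0740) and by DESeq2 (0.0607). GOLM1 had 1, 3 and 1 counts in untreated cells, 5, 1 and 6 at 2 h, 7, 5 and 4 at 8 h, 9, 4 and 11 at 24 h and 6, 16 and 13 at 72 h, all counts too few for the filter. Its pooled ratio of 72 h to untreated was 6.70 with a 0.95 counting interval of 2.62 to 21.9, and with no filter it was called at 24 h (adjusted p 0.0477) and 72 h (0.000644). The count of members called at 8 h was 2 without untreated library 1 or 8 h library 3, 3 without untreated library 2 or 8 h library 1 or 2, and 4 without untreated library 3. At 24 h it was 3 without 24 h library 1.

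**Figure D4:**
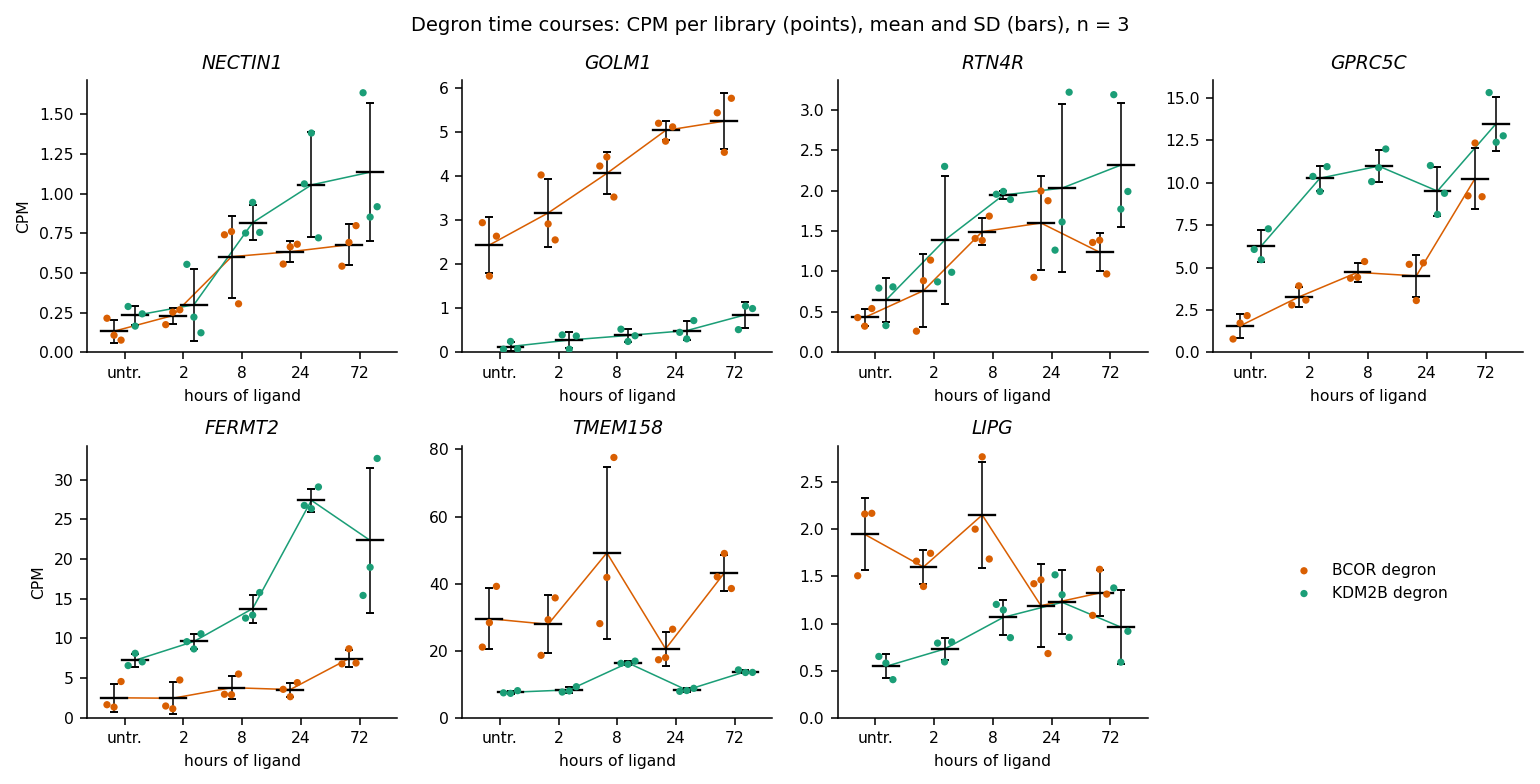
CPM (y axis) of the 7 genes by hours of ligand (x axis) in BCOR and KDM2B degron cells, with 1 point per library and bars for mean and SD (n = 3). Levels of the 2 tables share an axis but were normalized apart. TMEM158 is high at 8 h and 72 h in KDM2B degron cells, while in BCOR degron cells each of its groups overlaps the untreated one. FERMT2 climbs to 24 h in KDM2B and to 72 h in BCOR degron cells.

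The construct table compares ligand with DMSO in EV cells and in 4 lines with a high level of KDM2B transcript. In EV and in dLRRS cells the ligand raised the same 5 genes, RTN4R, FERMT2, NECTIN1, GPRC5C and TMEM158 (2.95% and 3.19% of 15910 genes were called higher). For NECTIN1 and GOLM1 no DMSO library of EV, LF, SF or dLRRS cells reached the filter cutoff. Their p-values among the constructs, and the counts that hold them, are therefore a description. In LF, SF and dCxxC cells edgeR called no member, where 0.00629%, 0.0189% and 0.0189% of all genes were called higher. At an unadjusted p under 0.05 there were 1 (GOLM1), 4 (NECTIN1, GOLM1, RTN4R and LIPG) and 1 (FERMT2) members in those lines. DESeq2 called 0 in each, but gave no adjusted p for 4 of 7 members in LF, 2 in SF and 5 in dCxxC cells, among them GOLM1 in all 3 lines. All 7 genes were tested, and their median log2 fold change was 1.13 in dLRRS cells, 1.24 in SF cells, 0.10 in LF cells, 0.037 in dCxxC cells and 1.02 in EV cells, against 0.0015, 0.0052, 0.0035, 0.0086 and 0.013 for all genes in those lines. The SF median thus lay above the EV median although no member was called in SF cells. It rested partly on few counts, since SF cells with DMSO had 0 counts of NECTIN1 and 1 of GOLM1 over the group. Taken gene by gene, the difference of the ligand effect, SF against EV, had a median log2 value of -0.37 over the 7 genes.

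NECTIN1 had 1.29, 1.25 and 1.34 CPM in dLRRS cells with ligand and 0.243, 0.0672 and 0.108 CPM with DMSO, a log2 fold change of 3.14 (SE 0.48, adjusted p 8.52e-06). In EV cells it had 0.901, 1.58 and 1.30 CPM with ligand and 0.343, 0.130 and 0.278 CPM with DMSO (log2 2.51, SE 0.44, adjusted p 9e-05). In LF cells it had 5, 5 and 1 counts with ligand and 2, 2 and 3 with DMSO, and in dCxxC cells 20, 38 and 30 with ligand and 25, 36 and 29 with DMSO. In those 2 lines the groups overlapped, at a low level in LF and a high level in dCxxC. SF cells had 2, 4 and 4 counts with ligand and none with DMSO, at least 3.78-fold higher, with an adjusted p of 0.151. These p-values of NECTIN1 are a description, as stated above.

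RTN4R had 1.23, 0.836 and 1.40 CPM in dLRRS cells with ligand and 0.122, 0.202 and 0.215 CPM with DMSO (log2 2.64, SE 0.44, adjusted p 2.81e-05), and 2.70, 2.87 and 2.27 CPM in EV cells with ligand and 0.744, 0.650 and 0.764 CPM with DMSO (log2 1.85, SE 0.31, adjusted p 3.14e-05). GPRC5C had 1.11, 0.767 and 1.01 CPM in dLRRS cells with ligand and 0.426, 0.403 and 0.484 CPM with DMSO (log2 1.13, SE 0.33, adjusted p 0.0218), and 6.31, 7.43 and 7.01 CPM in EV cells with ligand and 3.43, 3.29 and 3.89 CPM with DMSO (log2 1.02, SE 0.15, adjusted p 5.75e-06). TMEM158 had 13.2, 13.4 and 13.7 CPM in dLRRS cells with ligand and 8.09, 8.60 and 7.47 CPM with DMSO (log2 0.74, SE 0.12, adjusted p 2.66e-05), and 15.3, 18.4 and 18.6 CPM in EV cells with ligand and 12.7, 10.7 and 11.1 CPM with DMSO (log2 0.66, SE 0.12, adjusted p 0.000105). For all 3 genes the ligand libraries of both lines lay above the DMSO libraries. FERMT2 had 11.2, 10.2 and 11.2 CPM in dLRRS cells with ligand and 6.82, 7.26 and 7.69 CPM with DMSO. It had 14.9, 8.49 and 9.67 CPM in EV cells with ligand, the highest being shallow library 1, and 5.09, 6.41 and 5.62 CPM with DMSO (log2 0.74, SE 0.17, adjusted p 0.00231).

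In EV cells the 5 calls held with any 1 library left out. In dLRRS cells FERMT2 (log2 0.59, SE 0.15, adjusted p 0.00706) was below the fold threshold without DMSO library 1 or 2 or ligand library 1 or 3, with DESeq2 or its size factors and with no filter (0.54 to 0.58). GPRC5C lost its call there without DMSO library 1, 2 or 3 or ligand library 1 or 3 (adjusted p 0.0621 to 0.103) and with no filter (0.0719). The count in dLRRS cells was 3 with no filter, without DMSO library 2 and without ligand library 1 or 3. Without DMSO library 1 GOLM1 was called instead (adjusted p 0.0360). GOLM1 otherwise had 4, 3 and 3 counts with ligand and 1, 0 and 0 with DMSO in dLRRS cells, a pooled ratio of 10.1 with a counting interval of 1.44 to 439.

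The difference of the ligand effect from that in EV cells was tested for each line, and all comparisons share the EV libraries. NECTIN1 and GOLM1 stay a description here, for the reason given above. In dCxxC cells 4 of 7 members had a smaller ligand effect (1.43% of all genes did): NECTIN1 (log2 difference -2.47, SE 0.53, adjusted p 0.00375), RTN4R (-1.504, SE 0.40, adjusted p 0.0308), GPRC5C (-1.07, SE 0.18, adjusted p 0.000202) and TMEM158 (-0.82, SE 0.16, adjusted p 0.000935). In LF cells this held for 1 member, TMEM158 (-0.71, SE 0.16, adjusted p 0.00954, 0.641% of all genes), and in SF cells for 1, LIPG (-1.43, SE 0.39, adjusted p 0.0454, 0.641%). For dLRRS against EV 0 members were called by edgeR and 0 at an unadjusted p under 0.05 (0.0126% of all genes had a smaller effect), and DESeq2 gave no adjusted p for any of the 7. The RTN4R call was lost without EV DMSO libraries 1 or 2, EV ligand library 2, dCxxC DMSO libraries 1 or 2 or dCxxC ligand library 2, by DESeq2 and with no filter (adjusted p 0.0618 to 0.144). That of TMEM158 in LF cells was lost without EV ligand library 3 (adjusted p 0.0504), and that of LIPG in SF cells without any of 9 libraries, EV DMSO 1, 2 and 3, EV ligand 2 and 3, SF DMSO 1 and 3 and SF ligand 2 and 3, by DESeq2 and with no filter (0.0614 to 0.159).

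The lines already differed with DMSO. In dCxxC cells 5 genes, NECTIN1, RTN4R, GPRC5C, FERMT2 and TMEM158, were higher than in EV cells (10.3% of all genes were called higher), and LIPG was not called. NECTIN1 is counted as a description, since no EV DMSO library reached the filter cutoff for it. GPRC5C had 25.1, 24.5 and 25.4 CPM in dCxxC cells and 3.43, 3.29 and 3.89 CPM in EV cells (log2 2.83, SE 0.12, adjusted p 2.14e-22). GOLM1 had 47, 44 and 36 counts in dCxxC and 3, 9 and 1 in EV cells, a pooled ratio of 12.5 with a 0.95 counting interval of 7.07 to 24.2. Apart from 1 EV ligand library, it reached the cutoff of the filter in dCxxC libraries alone, so this difference is given without a test. NECTIN1 followed with 2.13 ± 0.53 CPM in dCxxC and 0.25 ± 0.11 CPM in EV cells (SD, n = 3 each). The dCxxC libraries of these 5 genes and of GOLM1 with DMSO lay above all EV DMSO libraries, and those of NECTIN1, GOLM1, GPRC5C and TMEM158 also above all EV ligand libraries. The 5 calls held with any 1 library left out.

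SF cells lay at the other end. There 5 genes were lower than in EV cells (9.47% of all genes) and LIPG was higher (4.17%). NECTIN1 and GOLM1 are among the 5 as a description, since no DMSO library of either line reached the filter cutoff for them. GPRC5C had 1, 2 and 0 counts in SF cells with DMSO and 60, 76 and 56 in EV cells, a pooled ratio of 0.0168 with a counting interval of 0.00344 to 0.0499 (adjusted p 1.14e-16). FERMT2 had 1.76, 2.20 and 1.62 CPM in SF and 5.09, 6.41 and 5.62 CPM in EV cells (log2 -1.62, SE 0.21, adjusted p 2.8e-08). RTN4R had 3, 2 and 3 counts in SF and 13, 15 and 11 in EV cells (adjusted p 0.000465). NECTIN1 had no count in SF and 13 in EV cells, at least 4.02-fold lower by the floor of 3 counts over the group (adjusted p 0.000942). GOLM1 had 1 count in SF and 13 in EV cells over 3 libraries (adjusted p 0.00627), a call that ended without EV DMSO library 2 (0.130).

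LIPG averaged 2.27 ± 0.49 CPM in SF and 1.04 ± 0.045 CPM in EV cells (SD, n = 3 each), a log2 difference of 1.12 (SE 0.25, adjusted p 0.000395).

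LF and dLRRS cells were mixed. In LF cells GPRC5C and GOLM1 were lower than in EV cells (8.36% of all genes) and FERMT2 and TMEM158 higher (6.9%). GPRC5C had 2, 4 and 2 counts in LF and 60, 76 and 56 in EV cells (log2 -4.08, SE 0.31, adjusted p 2.8e-14), and GOLM1 had none in LF and 13 in EV cells, at least 3.15-fold lower (adjusted p 0.00188). FERMT2 averaged 10.8 ± 3.3 CPM in LF and 5.71 ± 0.66 CPM in EV cells, and TMEM158 19.7 ± 2.3 CPM in LF and 11.5 ± 1.1 CPM in EV cells (SD, n = 3 each). In dLRRS cells RTN4R, GOLM1 and GPRC5C were lower than in EV cells (7.13%) and LIPG higher (4.82%). RTN4R had 2, 3 and 4 counts in dLRRS and 13, 15 and 11 in EV cells (log2 -1.93, SE 0.47, adjusted p 0.00101), GPRC5C 7, 6 and 9 in dLRRS and 60, 76 and 56 in EV cells (log2 -2.97, SE 0.25, adjusted p 4.09e-13), and GOLM1 1 in dLRRS and 13 in EV cells, lost without EV DMSO library 2 (adjusted p 0.131). TMEM158 in dLRRS cells (log2 -0.52, adjusted p 0.000801) did not pass the fold threshold. The KDM2B transcript was higher in all 4 lines than in EV cells, so its level and the line cannot be told apart, and its part in these differences was not tested.

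**Figure D5:**
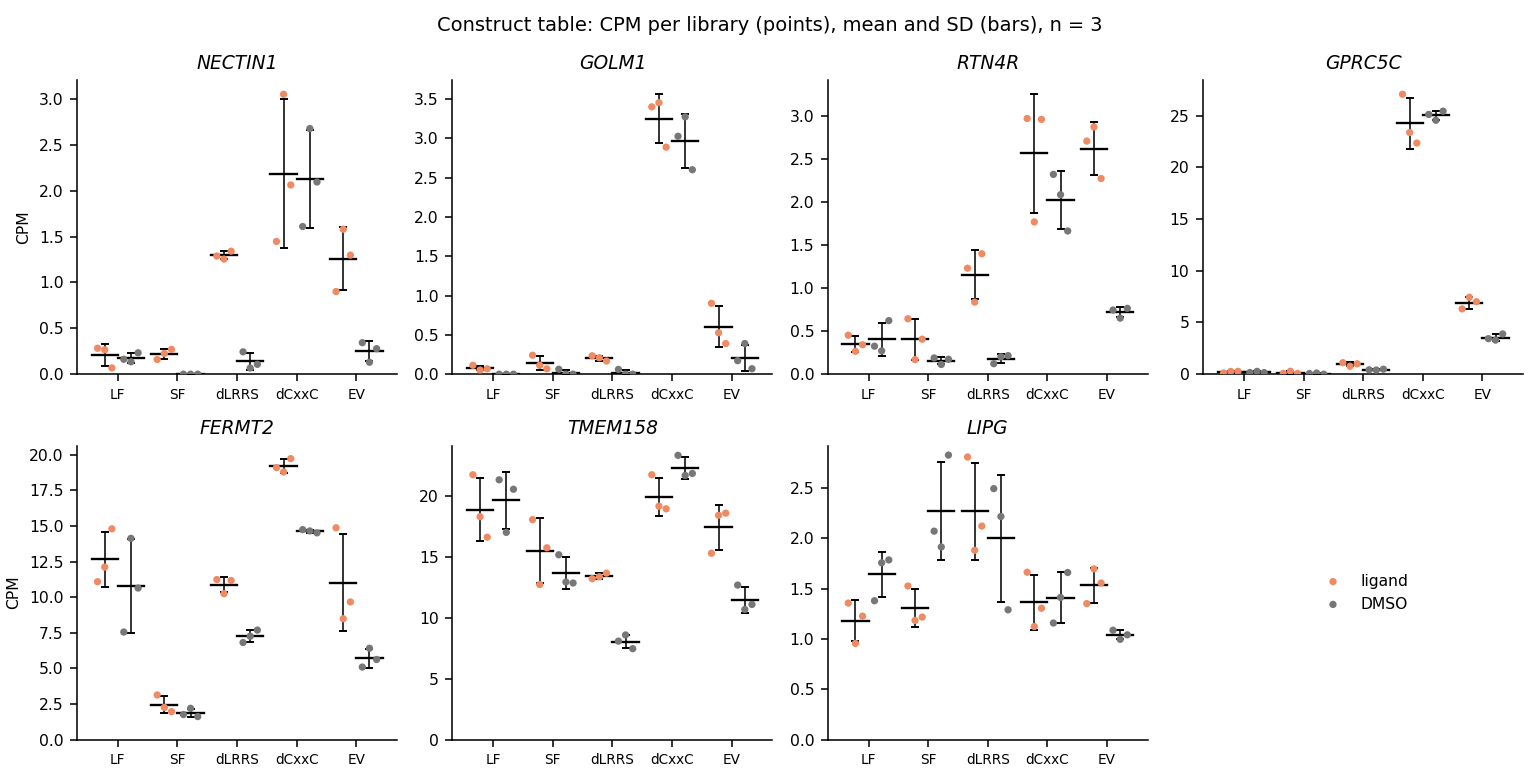
CPM (y axis) of the 7 genes in the 5 lines (x axis) with ligand and with DMSO, with 1 point per library and bars for mean and SD (n = 3). GOLM1 and GPRC5C are highest in dCxxC cells with either treatment, and in dLRRS and EV cells the ligand points of NECTIN1 and RTN4R lie above the DMSO points.

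Relatives of the 7 genes were counted from a list of 39 genes in 6 families, chosen with earlier results known. At 72 h of BCOR depletion 4 of 24 tested relatives were higher (4.74% of all genes). At 72 h of KDM2B depletion 6 of 26 were higher (6.55%). The BCOR count holds RTN4RL1, whose untreated mean was under the filter cutoff of that table. The KDM2B count holds NGFR (0.155 CPM untreated), FERMT1 (0.397 CPM) and RTN4RL1 (0.286 CPM), all under the cutoff of the KDM2B table. Both counts are thus a description, and no excess over all genes is read from them. The sister receptor RTN4RL1 averaged 1.51 CPM at 72 h and 0.189 CPM in untreated cells of the BCOR table (log2 2.88, SE 0.41), and 4.46 CPM in dCxxC and 0.157 CPM in EV cells with DMSO (log2 4.71, SE 0.38). Its EV mean was under the construct cutoff of 0.666 CPM too, so both differences are given without a test. RTN4RL2, the other Nogo receptor homologue, averaged 2.91 CPM at 24 h of KDM2B depletion and 1.03 CPM in untreated cells (log2 1.502, SE 0.31, adjusted p 0.000801). The integrin subunit ITGB3, which kindlins bind, averaged 11.7 CPM at 24 h and 7.53 CPM in untreated cells (log2 0.64, SE 0.16, adjusted p 0.00452). Of the kindlins, FERMT3, the form of blood cells, was called once, lower at 24 h of BCOR depletion (1.16% of all genes were called lower) with 66.4 CPM against 102 CPM in untreated cells (log2 -0.64, SE 0.15, adjusted p 0.0115). FERMT1 averaged 1.39 CPM at 72 h of KDM2B depletion and 0.397 CPM in untreated cells (log2 1.79, SE 0.41), also given without a test. In dCxxC against EV cells with DMSO 8 of 27 relatives were higher (10.3% of all genes), among them NECTIN3 with 1.15 and 0.114 CPM and LPL, a lipase of the LIPG family, with 1.09 and 0.176 CPM. The EV means of NECTIN3, LPL and RTN4RL1 were under the cutoff, so counts that hold them are a description too. In the other lines against EV with DMSO the relatives went both ways, with 3 higher and 3 lower in LF (6.9% and 8.36% of all genes), 1 higher and 5 lower in SF (4.17% and 9.47%) and 2 higher and 6 lower in dLRRS cells (4.82% and 7.13%). RTN4RL1 is in all 3 lower counts, but averaged only 0.157 CPM in EV, 0.0188 CPM in SF and 0 CPM in LF and dLRRS cells. NECTIN3 (0 CPM in SF and 0.114 CPM in EV cells) and ANGPTL4 (0.0760 and 0.339 CPM) were under the cutoff too. These lower counts are thus a description. With ligand 3 relatives were higher in dLRRS cells (3.19%) and 0 of 27 were called in EV cells by edgeR (2.95%), where 10 had an unadjusted p under 0.05. The 3 in dLRRS cells hold RTN4RL1, at 0.251 CPM with ligand and 0 CPM with DMSO, so that count is a description too.

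The nearest tested gene on each side of a member was also followed, 14 genes per table. TTYH2, a tweety family membrane protein that lies 170 kb to the left of GPRC5C, averaged 9.30 CPM in dCxxC and 3.85 CPM in EV cells with DMSO (log2 1.25, SE 0.16, adjusted p 2.61e-08). It was lower in LF (-1.69, SE 0.24) and SF cells (-1.65, SE 0.22) than in EV cells with DMSO, and higher with ligand in EV (0.67, SE 0.18) and dLRRS cells (0.75, SE 0.19). CD300A, a leukocyte receptor 14.7 kb to the right, averaged 2.21 CPM in dCxxC and 0.366 CPM in EV cells (log2 2.63, SE 0.41) and had 2 counts in SF and 19 in EV cells. Its EV mean was under the filter cutoff of 0.666 CPM, so these differences are given without a test. Neither neighbour was called at any time of BCOR depletion or at 2 h of KDM2B depletion, although GPRC5C was called at 3 BCOR times and at that KDM2B time. In dCxxC against EV cells with DMSO 2 of 14 neighbours were higher (10.3% of all genes), those of GPRC5C, with CD300A counted as a description. There 2 were lower (8.93%), TRIM29 next to NECTIN1 and RPL17 next to LIPG. TRIM29 was thus lower where NECTIN1 was higher, and in SF cells it was higher (log2 0.93, SE 0.35, adjusted p 0.0320) where NECTIN1 was lower. Of the 14, 2 were lower in LF cells against EV with DMSO (8.36% of all genes). In SF cells 3 were lower (9.47%) and 1 higher (4.17%), and in dLRRS cells 1 was lower (7.13%). At 24 h of KDM2B depletion 3 of 14 neighbours were higher (9.54% of all genes), TTYH2, OAF next to NECTIN1 and ACAA2 next to LIPG.

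The genes most alike each member over the 32 group means, by Pearson correlation of log2 CPM centred within a table, were named as a description, since the groups share libraries within a table and controls. For GPRC5C they were ESAM (0.98) and HIVEP2 (0.96), for NECTIN1 JAM3 (0.96) and SRRM3 (0.96), for GOLM1 PALD1 (0.96) and SOX8 (0.95), for FERMT2 GSDME (0.94) and DAB2 (0.93) and for RTN4R LIFR (0.92) and GPR153 (0.92). The closest genes of TMEM158, RDH10 (0.80) and XAGE1A (0.80), were less alike. Among the members, NECTIN1 ran with GOLM1 (0.89) and RTN4R (0.88), whereas TMEM158 had values between -0.14 and 0.39 with the other 6.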

How the data were processed

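RNA of K562 cells was measured in 96 libraries. The authors deposited raw counts per gene ID in 4 tables. The values the authors deposited in the J2_7 table are estimated counts per symbol, of which 57.9% of nonzero values were whole; they were rounded, and 92 spike-in entries were left out. Per the labels' protocols, RNeasy kits, a KAPA kit with ribosomal RNA removal, Strand Avadis NGS 3.0, STAR and hg38 were used, and Smart-3SEQ is named as a second option for the J2_7 table. The submitters' processing notes also name DESeq2 and, for the J2_7 table, Trim Galore 0.6.7. For the counting program, strand setting and annotation, the entry is "not given in the sources used here".

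Each table was fitted alone with edgeR 4.0.16 (R 4.3.3): filterByExpr, TMM and the robust quasi-likelihood test over all groups of a table, with Benjamini-Hochberg adjustment over 14110 (BCOR), 14524 (KDM2B), 15910 (construct), 13374 (inhibitor) and 14649 genes (J2_7). A call needed an adjusted p under 0.05 and a log2 fold change beyond 0.585 in either direction. Alternatives were DESeq2 1.42.0, its size factors, no filter, a replicate block, a prior count of 2, and each library left out. The fit was tested on simulated data. The members and lists were chosen with earlier results of these data known. Named genes were the members, a family list of 39 genes where called, the nearest tested neighbours, the 2 genes most alike each member (not reported here for LIPG), and KDM2B, BCOR and EZH2; JARID2 and AEBP2 were added after the values were seen. A floor of 3 counts per group gives lower bounds, and intervals (0.95, exact) cover counting error only. In the KDM2B, construct and inhibitor tables library numbers are the column order and pair nothing. The planned comparison of protein sequences was not run.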

Additional observations from a re-analysis of the deposited data

Results flagged for a closer look

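The ligand effect differed from that in EV cells, by the interaction term of edgeR's quasi-likelihood model, for 6 results. In dCxxC against EV cells the log2 difference was -2.47 for NECTIN1, -1.504 for RTN4R, -1.07 for GPRC5C and -0.82 for TMEM158. The NECTIN1 value is a description, since its EV libraries with DMSO were under the filter cutoff. In LF against EV cells it was -0.71 for TMEM158, and in SF against EV cells -1.43 for LIPG. The 4 genes of dCxxC cells had dCxxC DMSO levels above those of EV cells with DMSO, and TMEM158 in LF cells and LIPG in SF cells did too. The part of the DMSO level in these differences was not tested.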

How the results depend on the processing

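Counts of called members stayed within 1.5 times of the reported one under another tool, scaling or filter except in 3 comparisons. At 2 h of BCOR depletion the count was 1 in place of 0, GPRC5C, with no filter, by DESeq2 and with the replicate block. The block changed no other count. No comparison had every same-number correlation above 0.1, but at 2 h of BCOR depletion these were 0.082, 0.18 and 0.28. Whether the replicate numbers pair the samples of the BCOR table is thus not settled. With no filter the ligand called 3 members in dLRRS cells in place of 5. The SF against EV difference of the ligand effect had 0 in place of 1 with no filter and by DESeq2. DESeq2 gave no adjusted p for 27 values of members, which were not counted as lost calls, and among them were all 7 of the dLRRS against EV difference, for which it gave no count.

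With single libraries left out, the counts ran from 0 to 1 at 2 h, 1 to 4 at 8 h, 3 to 4 at 24 h and 3 to 5 at 72 h of BCOR depletion, and from 2 to 4 at 8 h and 3 to 5 at 24 h of KDM2B depletion, with 1 at 2 h and 5 at 72 h. With ligand they were 3 to 5 in dLRRS, 5 in EV and 0 in LF, SF and dCxxC cells. For the difference of the ligand effect from EV they were 0 to 1 for LF and SF, 0 for dLRRS and 3 to 4 for dCxxC, and for DMSO against EV 4 to 5 for LF, 5 to 6 for SF, 3 to 4 for dLRRS and 6 for dCxxC, GOLM1 included.

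The sign of 13 values that were not called changed with 1 library left out, and the cause was not tested. Their log2 ranges were -0.85 to 0.86 for FERMT2 and -0.33 to 0.17 for TMEM158 at 2 h and -0.059 to 0.29 for LIPG at 8 h of BCOR depletion, and -0.46 to 0.68 for NECTIN1 at 2 h of KDM2B depletion. With ligand in LF cells they were -0.43 to 0.25 for RTN4R, -0.10 to 0.42 for GPRC5C and -0.16 to 0.032 for TMEM158. In dLRRS cells LIPG ran from -0.048 to 0.41, and in dCxxC cells NECTIN1 from -0.27 to 0.26, GPRC5C from -0.14 to 0.0081 and LIPG from -0.21 to 0.093. The GPRC5C difference from EV ran from -0.74 to 1.07 in SF and from -0.0097 to 0.22 in dLRRS cells.

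Low counts limit the fold changes of the inhibitor and J2_7 tables. With a prior count of 2 the joint log2 fold change in the inhibitor table was 4.07 in place of 5.27 for GOLM1 and 3.68 in place of 4.43 for NECTIN1, and without DMSO library 3 that of GOLM1 was 6.18. The sum of both GPRC5C entries, chosen after seeing the data, moved 3 fitted values of the J2_7 table.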
